A study of Homo sapiens with 24 samples.

Results

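The clustered protocadherins are neuronal adhesion molecules of the cadherin superfamily, encoded by gene clusters called alpha, beta and gamma that lie next to each other on human chromosome 5. Members were taken by name, as every counted feature called PCDHA, PCDHAC, PCDHB, PCDHGA, PCDHGB or PCDHGC followed by a number. This gave 54 of 61248 features, with 16 in the alpha, 16 in the beta and 22 in the gamma cluster. All 54 lie on the plus strand of chromosome 5 in GENCODE release 29 (GRCh38), from 140786136 at the start of PCDHA1 to 141512979 at the end of PCDHGC5. PCDHA14 is annotated as a pseudogene.

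Each neuron expresses a small, partly random set of these genes, and the proteins on its surface bind matching sets on other membranes, which lets a neuron tell its own branches from those of its neighbours. In the alpha and gamma clusters each gene supplies a long variable first exon, with its own promoter, that is spliced to constant exons shared by the cluster, while beta genes have no constant exons. The promoters carry a conserved sequence element bound by CTCF, which works with cohesin to bring a promoter to a distant enhancer, and the silent promoters are methylated. In the alpha cluster, choice of a promoter is known to be tied to transcription of an antisense RNA from within the variable exon.

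The libraries came from H7, a human embryonic stem cell line, as 2 control lines and 2 lines in which BRAT1 was knocked out. BRAT1 is a partner of the Integrator complex, which cleaves nascent RNA. Each line was sampled at day 0, as undifferentiated stem cells, and at day 14 of ventral differentiation, as neural progenitors. There were 3 replicates of each, A to C, so that each genotype had 6 libraries per day and there were 24 in all. Whether a line is 1 clone is not given in the sources used here, and p-values measure the spread between libraries, of which 3 share a line. Library totals ran from 1407832 to 2143871 counts at day 0 and from 2228736 to 3726227 at day 14, and levels are given as CPM, counts scaled to a common library total with edgeR's TMM factors. These factors ran from 0.702 to 0.934 at day 0 and from 1.10 to 1.31 at day 14, so levels set across days depend on them. On this scale 3 counts, the limit that a count of 0 allows in a library (counting error only), are 1.76 to 2.79 CPM at day 0 and 0.615 to 1.18 CPM at day 14.

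The checks of labels and strand come first. BRAT1 stood at 163 to 254 CPM in the day 14 controls and at 6.54 to 12.9 CPM in knockout line 1 and 63.4 to 67.5 CPM in knockout line 2 at day 14. Knockouts were lower by a log2 fold change of -2.47 (SE 0.57; edgeR, adjusted p = 0.0111), a call kept in 21 of 24 alternatives and lost without control line 1 (adjusted p = 0.0914), without control line 2 (0.0834) and with counts summed per line (0.354). At day 0 BRAT1 had 0 to 6 counts per library in controls and 0 to 10 in knockouts, so that it checks no label there. Summed neural progenitor markers were 34.8 to 138 CPM in day 0 controls and 239 to 409 CPM in day 14 controls, with none of the 8 at 0 at day 14, while the 6 pluripotency markers summed to 36.3 to 112 CPM and 44.9 to 77.7 CPM. The strand of counting is in doubt: of 1177 pairs of an antisense gene and its coding partner with at least 100 counts, 876 (74.4%) had more counts under the antisense name. A count under a protocadherin name may therefore come from sense or from antisense RNA, and these cannot be told apart here. Beside each cluster, the minus-strand features opposite its exons are described for this reason. The minor-strand percent of a library, used below, is the counts under the weaker feature as a percent of those under the stronger, summed over 780 other opposite-strand pairs chosen to have at most 10% under the weaker, and ran from 0.724 to 1.21 at day 0, from 1.86 to 2.64 in day 14 controls and from 2.43 to 4.07 in day 14 knockouts.

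The promoters of the members on which the results turn are shown first, because each name starts at a promoter of its own. RefSeq (GRCh38.p14) promoter windows, from 250 bases before to 50 bases after the start site, were matched for 47 members. GGCGCT, the core of the conserved element as it was searched for, on either strand, was in 1 of 13 alpha, 13 of 14 beta and 8 of 20 gamma windows, against 21.7% of all 35116 windows. A longer form of it, which resembles the CTCF motif and contains the core, was in 2 beta windows and in no alpha or gamma window, against 2.37% of all. Reading the windows gave 3 further strings, so these were chosen after the sequences were seen: TGTCGCT in 10 of 13 alpha windows (1.76% of all windows), GGTGGCGCT, which contains GGCGCT, in 13 of 14 beta windows (0.501%), and CGCTGTT in 13 of 20 gamma windows (2.26%), each searched on both strands and found in these members on the strand of the gene. TGTCGCT and CGCTGTT can overlap in the letters CGCT, and TGTCGCT was also in 1 beta and 3 gamma windows. The string began 41 to 84 bases before the start site in alpha (median 54.5), 2 to 84 in beta (median 66.0) and 39 to 199 in gamma (median 48.0). The alpha windows below carry TGTCGCT in capitals with 20 bases on each side, on the plus strand. They belong to the members called between genotypes (PCDHA1, PCDHA4) or between days in either genotype (PCDHA2, PCDHA5, PCDHA10, PCDHA11, PCDHA12). The call of PCDHA5 has a limit that is given with its values.
PCDHA1 (chr5:140786079-140786125): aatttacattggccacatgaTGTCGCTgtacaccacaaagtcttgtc
PCDHA4 (chr5:140806972-140807018): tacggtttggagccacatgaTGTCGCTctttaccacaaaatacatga
PCDHA2 (chr5:140794774-140794820): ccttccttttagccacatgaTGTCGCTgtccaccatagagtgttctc
PCDHA5 (chr5:140821535-140821581): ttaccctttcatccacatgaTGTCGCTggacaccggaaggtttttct
PCDHA10 (chr5:140855834-140855880): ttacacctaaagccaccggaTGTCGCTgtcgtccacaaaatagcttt
PCDHA11 (chr5:140868876-140868922): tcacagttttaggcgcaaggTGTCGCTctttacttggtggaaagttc
PCDHA12 (chr5:140875237-140875283): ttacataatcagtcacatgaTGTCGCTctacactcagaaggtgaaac

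The beta windows of PCDHB2 and PCDHB14, among the beta names with most counts, carry GGTGGCGCT in capitals, and that of PCDHGB4, a gamma member with counts almost only at day 14, carries CGCTGTT. A match describes the letters and is no evidence of a bound site.
PCDHB2 (chr5:141094535-141094583): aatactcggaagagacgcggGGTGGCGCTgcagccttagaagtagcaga
PCDHB14 (chr5:141223254-141223302): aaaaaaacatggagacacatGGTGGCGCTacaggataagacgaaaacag
PCDHGB4 (chr5:141387613-141387659): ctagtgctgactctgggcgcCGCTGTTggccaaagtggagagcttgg

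Counts under protocadherin names were mostly alpha. Over the 24 libraries the 54 names held 16288 counts, or 0.0278% of all counts, of which alpha had 14376 (88.3%), gamma 1339 (8.22%) and beta 573 (3.52%). PCDHA11 had the most, with 2844 counts, followed by PCDHA4 with 2599, PCDHA2 with 1977, PCDHA10 with 1957, PCDHA3 with 1665 and PCDHA1 with 1253. PCDHA14 and PCDHB8 had no count in any library, and 34 members had at least 30 counts in all. The C-type genes of the alpha cluster, which in neurons are expressed from both chromosomes and not by random choice, were nearly empty, with 5 counts for PCDHAC1 and 1 for PCDHAC2. Alpha and gamma names share their constant exons, so levels were compared between members per kilobase of exon that belongs to 1 gene alone.

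Per kilobase, the order of the alpha members differed between the days. In day 0 controls PCDHA11 was highest, with 25.6 ± 17.5 CPM per kilobase (SD, n = 6), followed by PCDHA10 with 7.68 ± 5.53 and PCDHA12 with 3.82 ± 2.03. PCDHA10 and PCDHA12 differed by less than the SD of PCDHA10. PCDHA3 (3.78 ± 4.64) and PCDHA8 (3.77 ± 5.95) were close to PCDHA12. In day 0 knockouts the order was PCDHA11 (20.8 ± 3.90), PCDHA12 (9.10 ± 5.40), PCDHA2 (5.81 ± 6.41) and PCDHA10 (5.47 ± 2.13). In day 14 controls PCDHA2 was highest, with 15.6 ± 4.20 CPM per kilobase, then PCDHA11 with 10.7 ± 2.36, PCDHA3 with 7.68 ± 2.92 and PCDHA1 with 4.65 ± 1.61. In day 14 knockouts PCDHA2 was again highest, with 14.5 ± 2.55 CPM per kilobase, and PCDHA1 was next with 13.3 ± 3.70, a difference smaller than the spread of either. The highest gamma members at day 14 were PCDHGB7, with 1.74 ± 0.734 CPM per kilobase in controls and 2.71 ± 1.00 in knockouts, and PCDHGB4, with 1.33 ± 0.510 and 2.39 ± 1.21.

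The summed level of the alpha cluster overlapped between the days and genotypes, while its make-up differed between the days. Alpha totals were 120 to 520 CPM in day 0 controls (median 185), 172 to 261 in day 0 knockouts (median 235), 171 to 254 in day 14 controls (median 214) and 203 to 274 in day 14 knockouts (median 239), and all 4 ranges overlapped. The 2 highest totals, 520 and 399 CPM, were replicate A of control line 2 and of control line 1 at day 0. PCDHA10 with PCDHA11 made up 63.0 ± 8.34% of the alpha total in day 0 controls (SD, n = 6) and 26.6 ± 7.90% in day 14 controls, with no overlap between the days (52.4 to 73.6% against 18.2 to 39.3%). PCDHA1 to PCDHA4, the first genes of the cluster, made up 22.2 ± 7.29% and 56.9 ± 5.76%. In knockouts the same shares were 57.3 ± 8.77% and 19.1 ± 2.50% for PCDHA10 with PCDHA11, and 24.9 ± 12.1% and 69.6 ± 3.45% for PCDHA1 to PCDHA4. These groupings of neighbours were made after the values were seen.

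**Figure D1:**
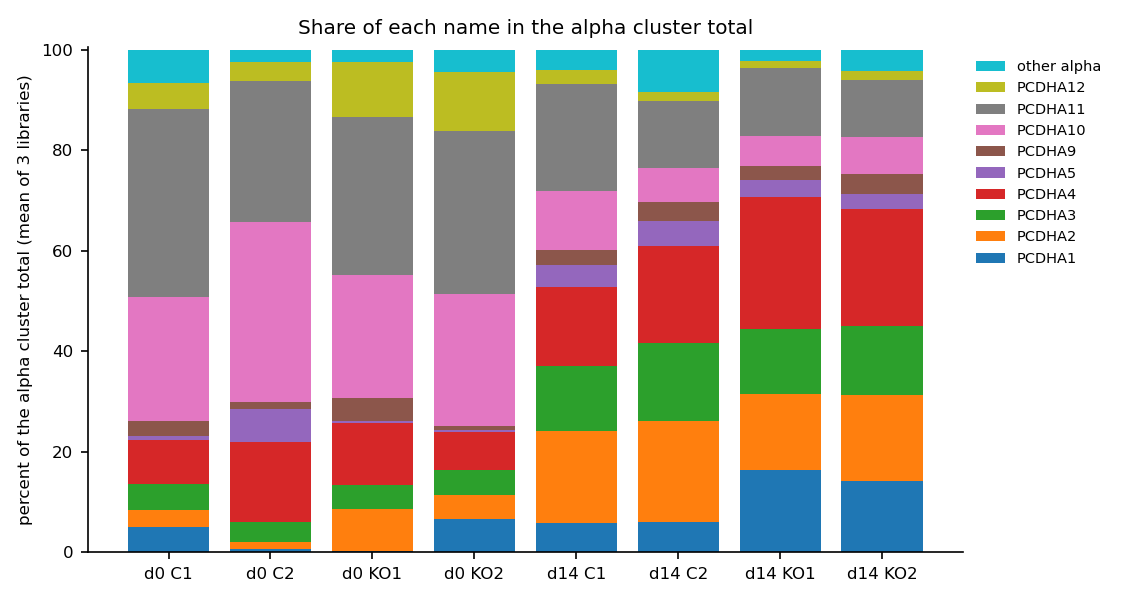
Mean share of each alpha name in the alpha cluster total (percent, y axis) for the 8 groups of 3 libraries (d, day; C, control line; KO, knockout line). PCDHA10 (pink) and PCDHA11 (grey) take most of each day 0 bar, and PCDHA1 to PCDHA4 (the 4 lowest segments) most of each day 14 bar, with a wider PCDHA1 segment in the day 14 knockout lines.

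Loss of BRAT1 at day 14 went with more counts under the PCDHA1 name and, less firmly, under the PCDHA4 name. Across 11408 features that passed the low-count filter, 21.7% were called at an edgeR adjusted p under 0.05, 11.0% higher and 10.7% lower in knockouts. Of the 54 protocadherins 12 passed the filter, 10 alpha and 2 gamma, and 2 of them (PCDHA1 and PCDHA4) rose and none fell, a share near that background. The median log2 fold change of the 12 was -0.04, against 0.07 over all features. No beta name passed the filter. In bulk RNA a change in the number of cells of a type and a change in RNA per cell cannot be told apart, and markers of cell type also moved with genotype, as given at the end.

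PCDHA1, whose gene spans chr5:140786136-141012347 and whose own exon is the first of the cluster, had 9.17, 11.3 and 21.2 CPM as lowest, median and highest of the 6 day 14 controls. In the 6 day 14 knockouts it had 26.6, 33.4 and 51.1 CPM. Every knockout library lay above every control library, in line 1 (29.6 to 51.1 CPM) and in line 2 (26.6 to 45.3 CPM). On the log2 scale it rose by 1.505 (SE 0.25; adjusted p = 6.33e-05 by edgeR), 2.84-fold. As a share of the alpha total PCDHA1 was 5.95 ± 1.81% in controls and 15.3 ± 3.73% in knockouts (SD, n = 6). The call was kept in 23 of 24 alternatives and lost (adjusted p = 0.637, log2 fold change 1.51) where the day 0 libraries entered the same fit. With the minor-strand percent as a covariate the log2 fold change was 1.37 (adjusted p = 0.00219).

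PCDHA4, whose gene starts at chr5:140806929, had 28.6, 31.1 and 56.7 CPM as lowest, median and highest in day 14 controls and 42.2, 59.8 and 69.0 in day 14 knockouts. The groups overlapped: 4 of 6 knockouts lay above all controls. Its log2 fold change was 0.63 (SE 0.20; adjusted p = 0.0227 by edgeR), and the call was lost in 11 of 24 alternatives. The control lines differed from each other, with 28.6 to 30.2 CPM in line 1 and 32.0 to 56.7 in line 2, and without control line 1 the log2 fold change was 0.27 (adjusted p = 0.518). Leaving out any replicate of control line 1, replicate B of control line 2, replicate A of knockout line 1 or replicate B of knockout line 2 ended the call, with adjusted p between 0.0593 and 0.0760.

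The other 10 tested members did not pass. PCDHA2 (-0.11), PCDHA3 (0.03) and PCDHA9 (0.11) had log2 fold changes near 0 with standard errors of 0.20, 0.24 and 0.37. PCDHA5 (-0.39), PCDHA10 (-0.29), PCDHA11 (-0.29) and PCDHA12 (-0.35) had negative values with standard errors of 0.38, 0.25, 0.20 and 0.47. PCDHA6 had -0.72 (SE 0.60), and its 2 control lines stood apart, at 1.08 to 3.43 CPM in line 1 and 10.4 to 13.4 CPM in line 2. Among gamma members, PCDHGB4 had 0.82 (SE 0.47, adjusted p = 0.226) and PCDHGB7 had 0.64 (SE 0.42, adjusted p = 0.292). PCDHA7 and PCDHA8 failed the filter at day 14. In the alternatives that admitted it PCDHA8 passed without knockout line 2 (-2.50, adjusted p = 0.0413) and not with no filter (-1.47, adjusted p = 0.140). With knockout line 2 left out PCDHA8 entered through its control libraries, so that call is no separate support. PCDHA8 had 106 counts in day 14 controls and 39 in knockouts, and at day 0 92 and 10, of which 55 and 36 were in 2 control libraries. PCDHA7 had 53 and 28 counts at day 14, and 7 and 49 at day 0, of which 33 were in replicate B of knockout line 2.

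**Figure D2:**
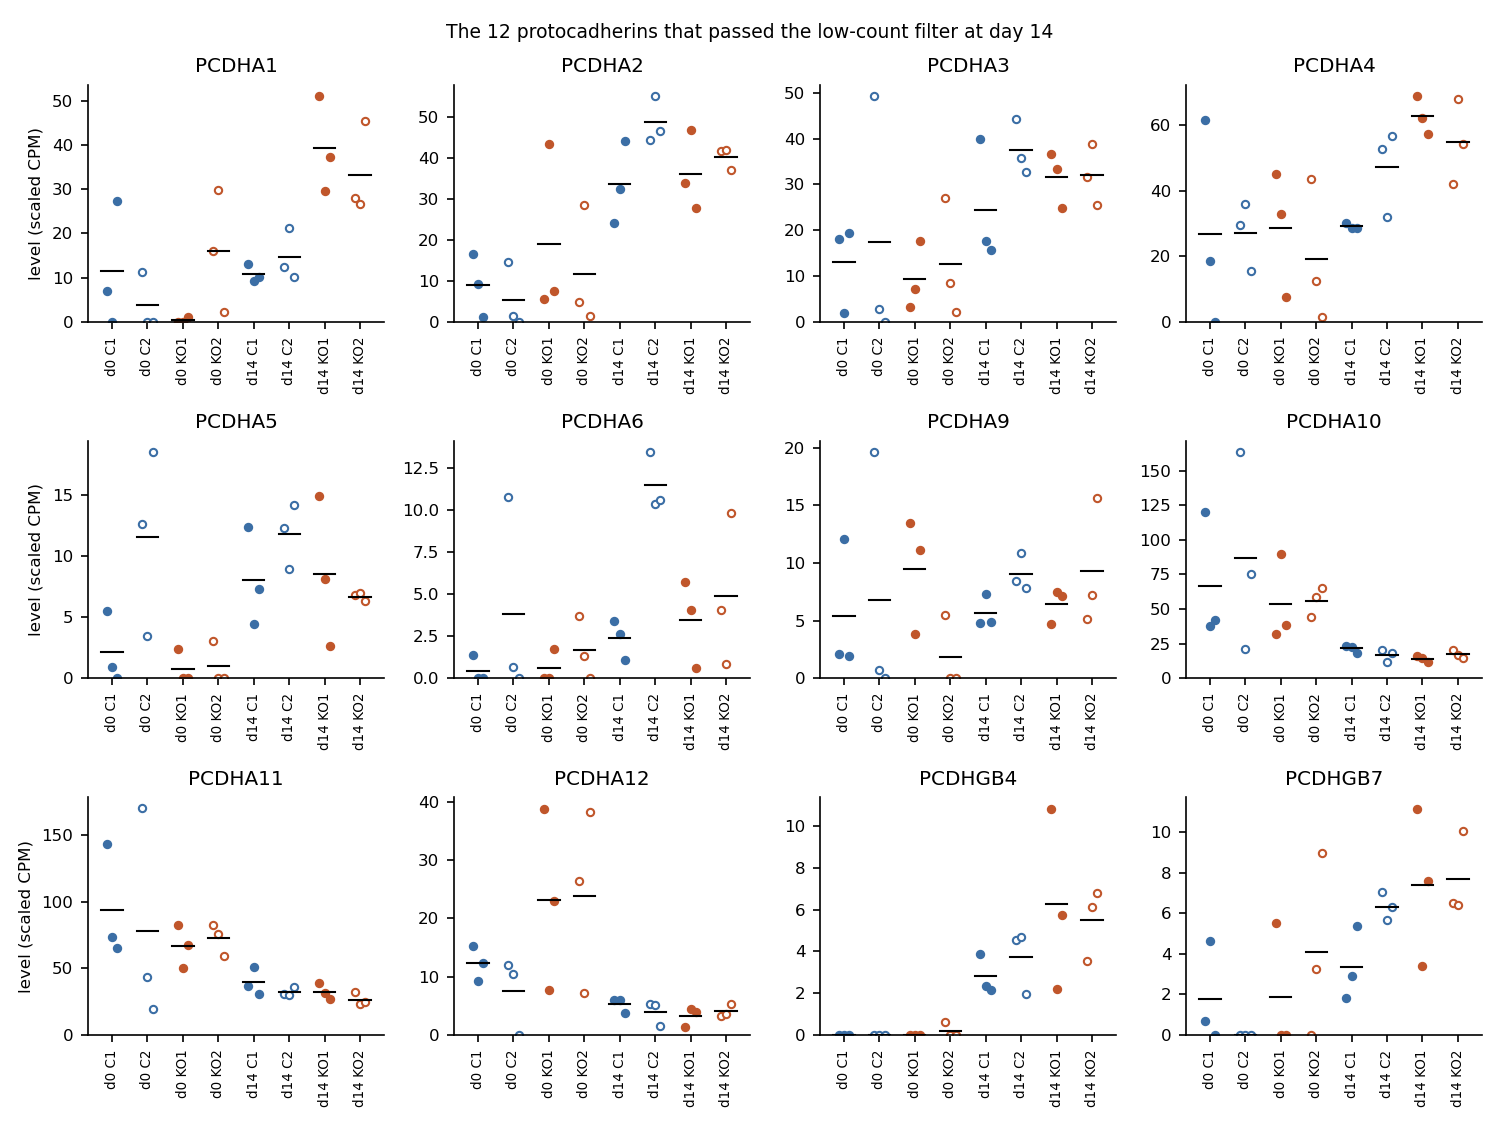
Level (TMM-scaled CPM, y axis from 0) of the 12 protocadherins that passed the low-count filter at day 14, in each of 24 libraries, by day and line (points, filled for line 1 and open for line 2; blue, control; orange, knockout; bars, mean of 3). PCDHA1 in the day 14 knockouts (26.6 to 51.1 CPM) lies above all day 14 controls, and PCDHA10 and PCDHA11 are lower at day 14 than at day 0 in most libraries.

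At day 0 no protocadherin was called between genotypes. Of 4832 features tested edgeR called 0%, and 99 had an unadjusted p under 0.05. No member was called by DESeq2. The 6 members tested were PCDHA2, PCDHA3, PCDHA4, PCDHA10, PCDHA11 and PCDHA12, with log2 fold changes from -0.48 to 1.27 and none at an unadjusted p under 0.05. The standard errors were wide, 1.02 for PCDHA2 (log2 fold change 1.23) and 0.42 for PCDHA11 (-0.25), and PCDHA1, beta and gamma names did not pass the filter at this depth.

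With differentiation, PCDHA10 and PCDHA11 fell in both genotypes. PCDHGB4 is counted below among the members that rose, but had 0 counts in day 0 controls and 1 in day 0 knockouts. It passed the filter through its day 14 libraries, so its calls are no separate support. In controls 42.8% of 10971 features were called, 28.4% higher and 14.4% lower at day 14, and the median log2 fold change of all features was 0.60 with TMM scaling and 0.83 with RLE scaling (another way to set size factors), so that values are read against that shift. Of 13 members tested 2 rose and 2 fell, with a median log2 fold change of 0.53, the same with PCDHGB4 at its lower bound. In knockouts, which shared the fit, 46.3% were called (29.8% higher, 16.5% lower; median 0.65 with TMM and 1.04 with RLE scaling), and 2 members rose and 3 fell under TMM, while 6 rose and 3 fell under RLE scaling. The comparison of days differs in library depth as well, since every day 0 library was shallower than every day 14 library, and the part of depth was not tested.

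PCDHA10 fell in both genotypes. Its day 0 controls had 20.8, 58.9 and 164 CPM as lowest, median and highest, and its day 14 controls 11.8, 19.5 and 23.6. Only the lowest day 0 control, at 20.8 CPM, lay within the day 14 range. It changed by -1.995 on the log2 scale (SE 0.41; adjusted p = 0.000253 by edgeR) in controls and -1.79 (SE 0.41, adjusted p = 0.000646) in knockouts. PCDHA11, its neighbour, changed by -1.26 (SE 0.36, adjusted p = 0.00560) in controls, from a median of 69.5 to 33.4 CPM, and by -1.24 (SE 0.36, adjusted p = 0.00575) in knockouts, from 71.8 to 29.5 CPM. These 4 calls held in all 28 alternatives, RLE scaling included. For PCDHA11 the days overlapped in controls, with 19.2 to 171 CPM at day 0 and 30.1 to 51.1 CPM at day 14. In knockouts they did not, with 50.5 to 82.8 CPM and 22.9 to 38.6 CPM.

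PCDHA12 fell in knockouts, from 7.15, 24.7 and 38.8 CPM (lowest, median, highest) at day 0 to 1.35, 3.76 and 5.29 at day 14, with no overlap between the days and -2.67 as log2 fold change (SE 0.69; adjusted p = 0.00191). In controls it changed by -1.08 (SE 0.66, adjusted p = 0.190), and the difference between the genotypes, as the interaction term, was -1.59 (SE 0.93, adjusted p = 0.443).

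PCDHA2 rose in controls, from 0, 5.34 and 16.6 CPM at day 0 to 24.05, 44.2 and 55.1 CPM at day 14, with no overlap. Its log2 fold change was 2.51 (SE 0.70, adjusted p = 0.00457) in controls and 1.32 (SE 0.67, adjusted p = 0.105) in knockouts. PCDHA5 rose in knockouts, from a total of 8 counts at day 0 to 158 at day 14, by 3.02 on the log2 scale (SE 0.97; adjusted p = 0.0114), and had 0.53 (SE 0.84, adjusted p = 0.642) in controls. PCDHA5 passed the filter through its day 14 libraries, so its call in knockouts is no separate support. The interaction term for PCDHA5 was 2.49 (SE 1.26, adjusted p = 0.346), so no difference between genotypes was shown. PCDHA1 had 0.72 (SE 0.92) in controls and 2.13 (SE 0.94, adjusted p = 0.0632) in knockouts. No member of 13 passed the interaction test, where 1.47% of all features did (0.565% higher, 0.902% lower). None had an unadjusted p under 0.05 and none was called by DESeq2.

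Several gamma names had nearly all of their counts at day 14. PCDHGB4 had 0 counts in the 6 day 0 controls and 79 in the day 14 controls, at least 9.62-fold higher when 3 counts over the 6 day 0 libraries are taken as the floor. In knockouts it had 1 count at day 0 and 129 at day 14, a ratio of 52.2 (95% exact interval 9.20 to 2077, counting error only). At day 14 all 12 libraries had PCDHGB4 counts, at 1.97 to 4.71 CPM in controls and 2.18 to 10.8 CPM in knockouts. PCDHGB6 went from 1 count to 37 in controls and from 1 to 55 in knockouts, and PCDHGB2 from 4 to 42 and from 0 to 40, though neither passed the filter. PCDHGB7 had 6 counts at day 0 and 110 at day 14 in controls, 24 and 168 in knockouts, with adjusted p of 0.0516 and 0.239. Some gamma names, such as PCDHGC5 and PCDHGB5, had more counts at day 0 than at day 14 in controls. The summed gamma level was 17.8 to 24.4 CPM in day 14 controls and 21.2 to 49.1 CPM in day 14 knockouts, and these ranges overlapped. At day 0 it was 0.740 to 25.7 CPM in controls and 2.59 to 34.5 CPM in knockouts, overlapping day 14 in both genotypes. The ratio of scaled sums, day 14 over day 0, was 1.60 in controls and 2.87 in knockouts, with no test.

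Of the 14 gamma names with at least 30 counts, 2 had over 50% of them in 1 library and 12 did not. PCDHGC5, a C-type gene, had 32 of its 37 counts in replicate B of day 0 control line 2, and PCDHGB3 had 31 of its 33 in replicate B of day 14 knockout line 1. PCDHGA1 had 37 and 34 of its 85 counts in 2 day 14 libraries, of a knockout and a control line. PCDHGB5 had 16 and 14 of its 43 in 2 day 0 libraries. PCDHGA6, PCDHGA7, PCDHGA9 and PCDHGA10 were spread over 5 to 15 libraries with 31 to 86 counts in all. PCDHGC3 was spread more evenly, with counts in all 12 day 14 libraries, 1 to 9 each, and 19 in controls against 35 in knockouts. PCDHGC4 had 20 counts in day 14 controls, of which 10 were in 1 library, and 37 in knockouts, of which 17 were. All of these names failed the filter at day 14. With no filter PCDHGB3 passed between genotypes (log2 fold change 4.36, adjusted p = 0.0443), on counts almost all from 1 library, and none of the others named here did.

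Counts under beta names were almost absent at day 0 and low at day 14, while the features opposite beta exons summed to 226 to 348 CPM at day 0 and 565 to 1080 CPM at day 14. The beta names had 6 counts in the 6 day 0 controls and 0 in the 6 day 0 knockouts, whose limit for a count of 0 was 1.76 to 2.38 CPM per library. At day 14 it had 134 counts in controls and 433 in knockouts. The summed level was 3.15, 6.24 and 7.10 CPM as lowest, median and highest in day 14 controls and 14.2, 17.0 and 28.1 CPM in day 14 knockouts. Every knockout library lay above every control library, with line means of 5.75 and 5.60 CPM in the control lines and 19.6 and 17.8 CPM in the knockout lines. The ratio of scaled sums was 3.35 (95% exact interval 2.75 to 4.09, counting error only), and the sum has no test here.

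The beta difference was spread over several names. PCDHB2 had 17 counts in day 14 controls and 82 in knockouts, PCDHB11 6 and 68, PCDHB14 8 and 67, PCDHB16 22 and 45, PCDHB9 18 and 40, PCDHB12 1 and 36, and PCDHB1 1 and 32. PCDHB4 (25 and 21), PCDHB7 (19 and 10) and PCDHB15 (6 and 4) had fewer counts in knockouts. Leaving out of single libraries aside, PCDHB11 was called higher in knockouts in 4 of the 5 alternatives that admitted it: no filter (log2 fold change 3.43, adjusted p = 0.0167), the 4 lines as groups (3.75, 0.0138), counts summed per line (3.33, 0.0480) and without control line 2 (4.72, 0.0493). It was not called without control line 1 (2.80, 0.151). With 6 counts in day 14 controls and 68 in knockouts, PCDHB11 entered the settings that keep a filter through its knockout libraries. Calls in those settings are therefore no separate support. In the same 5 alternatives PCDHB2 had adjusted p of 0.0578 to 0.265 and PCDHB14 of 0.0514 to 0.199. Some of these counts were concentrated. PCDHB1 had 18 and 12 of its 32 knockout counts in 2 libraries, PCDHB16 had 16 of its 22 control counts in 1 library and all 45 knockout counts in 3, and PCDHB9 had 17 of its 40 knockout counts in 1. PCDHB12 had 25 of its 37 counts in replicate C of knockout line 1, and that library, with 28.1 CPM, was the highest for the cluster. The minor-strand percent was also higher in knockouts, with a median of 3.198 against 2.39 in controls, and its part in the beta result was not tested. Replicates A and B of knockout line 1 had minor-strand percents of 2.55 and 2.43, within the control range of 1.86 to 2.64. Their beta levels were 14.2 and 16.5 CPM, above the highest control. Replicate C of knockout line 1 had a minor-strand percent of 4.01, above that range, and a beta level of 28.1 CPM. Replicates A, B and C of knockout line 2 were also above it, with 3.27, 3.13 and 4.07. Their beta levels were 17.4, 14.3 and 21.7 CPM. The highest beta levels, 28.1 and 21.7 CPM, were in the libraries with minor-strand percents of 4.01 and 4.07. These values are given as description, and no relation between them was tested.

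**Figure D3:**
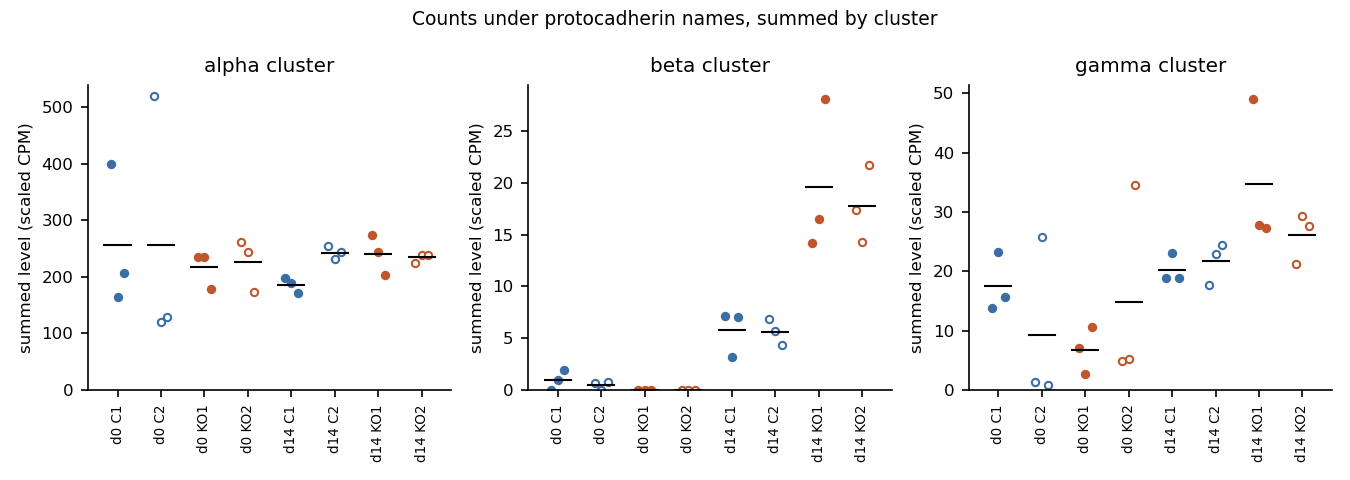
Summed level of the alpha, beta and gamma names (TMM-scaled CPM, y axes from 0 with different ranges) in each of 24 libraries, by day and line (filled, line 1; open, line 2; blue, control; orange, knockout; bars, mean of 3). The day 14 knockouts lie above the day 14 controls in beta (14.2 to 28.1 against 3.15 to 7.10 CPM) and overlap them in alpha and gamma.

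Most counts at the locus lay under 1 minus-strand feature, PCDHB1-AS1. The other minus-strand features together held fewer counts than the protocadherin names. The annotation places 12 minus-strand features opposite exons of 19 members, in 19 overlaps, and in 18 of them the minus-strand feature had more counts per kilobase than the member, including all 10 beta overlaps and 7 of 8 alpha overlaps. Each density was taken over a whole feature and not over the shared bases, which ran from 32 (PCDHB15) to 815 (PCDHB16). The shares below are therefore not shares of the strands over the same bases. PCDHB1-AS1, which spans chr5:141046260-141096402 and overlaps 620 bases of PCDHB2 and 137 bases of PCDHB1, had 34723 counts, against 16288 for all 54 members together. ENSG00000278936, opposite PCDHB16 and PCDHB11, had 3201 counts, ENSG00000278915, opposite PCDHA12, had 904, and ENSG00000279726, opposite PCDHA1, PCDHA3 and PCDHA5, had 746. Of the counts per kilobase of a member and its opposite feature, the member held between 0.0208% and 1.13% in the 10 beta overlaps (median 0.419%). In alpha it held between 0.252% (PCDHAC2) and 80.5% (PCDHA9), with a median of 18.3%, and 48.4% for PCDHA1. In single day 14 libraries the 10 beta members together held 0.00714% to 0.103% in controls and 0.0443% to 0.421% in knockouts, under the lowest minor-strand percent of 1.86 at that day. The 8 alpha members together held 12.4% to 22.3% in controls and 23.2% to 26.2% in knockouts, above the highest of 4.07. The minor-strand percent counts reads and not reads per kilobase, so only the size of these gaps is given. The beta names with no opposite feature, such as PCDHB4, PCDHB9, PCDHB12 and PCDHB14, have no such comparison.

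**Figure D4:**
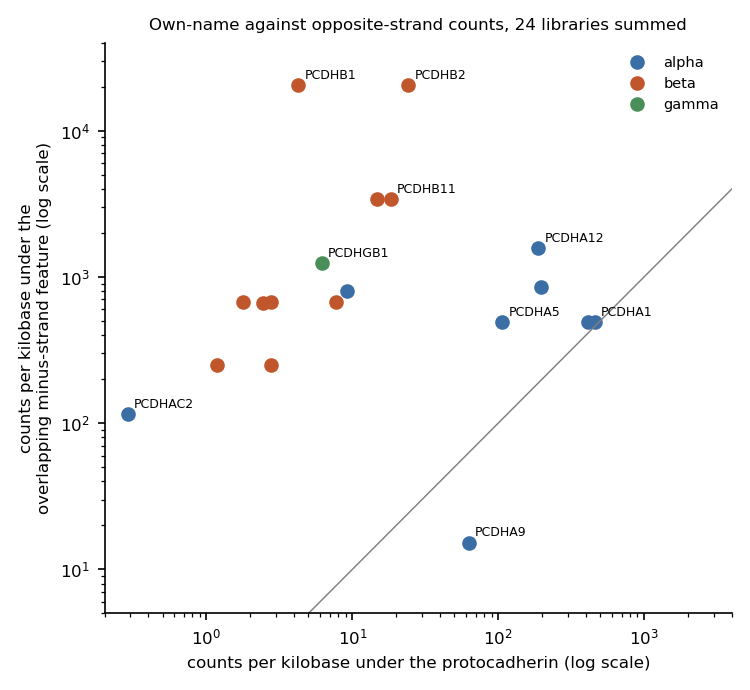
Counts per kilobase of exon under a protocadherin (x axis, log scale) and under the minus-strand feature that overlaps it (y axis, log scale), 24 libraries summed, for 19 overlaps (blue, alpha; orange, beta; green, gamma; some named; line, equal density). All beta points lie far above the line, and only PCDHA9 lies below it.

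The minus-strand features moved with genotype at day 14 as follows. PCDHB1-AS1 rose, from 492, 527 and 645 CPM (lowest, median, highest) in controls to 593, 777 and 975 CPM in knockouts, with 5 of 6 knockouts above all controls, with 0.54 as log2 fold change (SE 0.13; adjusted p = 0.00252 by edgeR). Its 2 knockout lines differed in level, with 916 ± 83.1 CPM in line 1 and 683 ± 78.5 in line 2 (SD, n = 3), and without knockout line 1 the log2 fold change was 0.28 (adjusted p = 0.128). Without control line 1 it was 0.38 (adjusted p = 0.166). The call was kept in 20 of 24 alternatives, and was also lost with counts summed per line (0.38, adjusted p = 0.230) and with all 24 libraries in 1 fit (0.54, adjusted p = 0.101). ENSG00000278946, at chr5:140867513-140867959 and opposite an exon of PCDHA10, fell from 5.95, 10.8 and 17.7 CPM to 1.02, 4.38 and 6.53 CPM, with 5 of 6 knockouts below all controls and -1.51 as log2 fold change (SE 0.43; adjusted p = 0.0123). That call was lost with the minor-strand percent as a covariate (-0.72, adjusted p = 0.473), without control line 2 (-0.88, adjusted p = 0.401), without knockout line 1 (-1.36, adjusted p = 0.0501) and with all 24 libraries in 1 fit (adjusted p = 0.6252), and kept in the other 20 of 24 alternatives. ENSG00000279726, opposite PCDHA1, PCDHA3 and PCDHA5, fell by 0.81 on the log2 scale (SE 0.29, adjusted p = 0.0479), from a median of 17.8 to 11.8 CPM, and lost its call in 15 of 24 alternatives. In the same libraries PCDHA1 had a positive log2 fold change. PCDHA3 and PCDHA5, which ENSG00000279726 overlaps by more bases (433 and 590 against 398), did not pass, and PCDHA5 had a negative value.

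**Figure D5:**
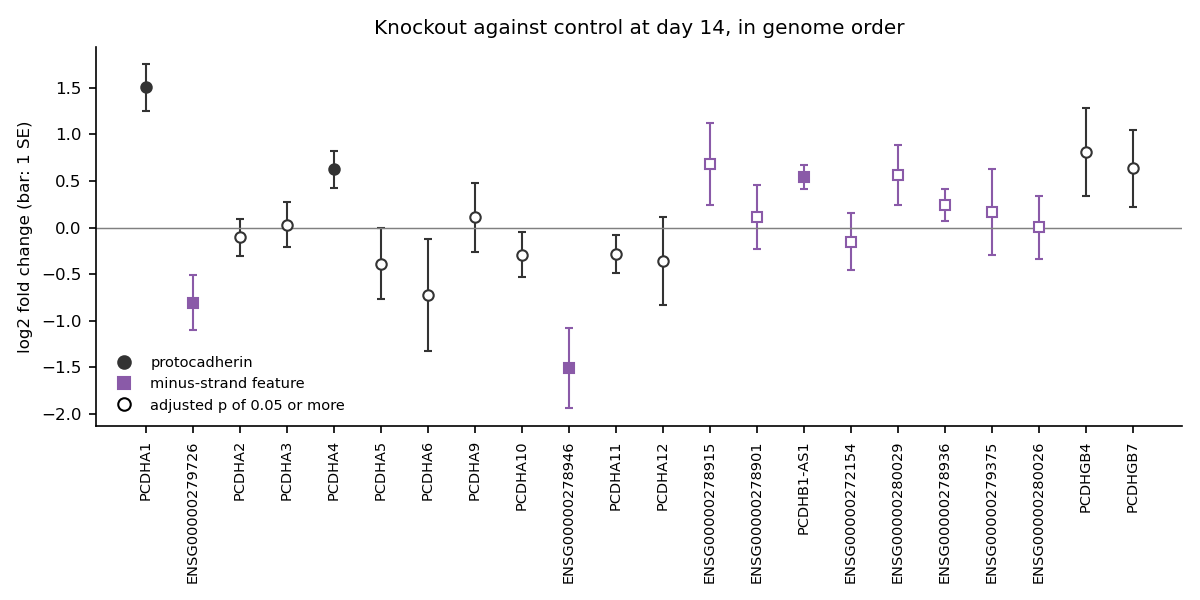
Log2 fold change of knockout over control at day 14 (y axis; bars, 1 SE) for the protocadherins (circles) and the minus-strand features opposite their exons (squares) that passed the filter, in genome order (filled, edgeR adjusted p under 0.05). PCDHA1 (1.505) is the highest and ENSG00000278946 (-1.51) the lowest.

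With differentiation, 6 of 11 tested minus-strand features of the locus rose and 1 fell in controls, and 3 rose and none fell in knockouts. Over all features 28.4% rose and 14.4% fell in controls, and 29.8% rose and 16.5% fell in knockouts, so the knockout count was near that background. In the day 0 libraries alone 4 minus-strand features of the locus passed the filter. Others among the 11 entered through their day 14 libraries, ENSG00000280029 with 0 counts at day 0 among them. Their rises, and the control count of 6, are therefore no separate support. PCDHB1-AS1 had 205 to 338 CPM in day 0 controls and 492 to 645 CPM in day 14 controls, with no overlap. It rose by 1.04 on the log2 scale (SE 0.17; adjusted p = 1.75e-05) in controls and by 1.62 (SE 0.18; adjusted p = 7.01e-09) in knockouts. ENSG00000280029 lies opposite PCDHB5 and PCDHB15 and, by more bases, opposite the pseudogene PCDHB19P. It had 0 counts at day 0 in both genotypes and 158 and 226 at day 14, in controls and knockouts. These were at least 19.2-fold and 30.5-fold higher against a floor of 3 counts over 6 libraries. ENSG00000278936 rose by 2.24 (SE 0.55, adjusted p = 0.00137) in controls and 1.69 (SE 0.53, adjusted p = 0.00954) in knockouts. ENSG00000278915, opposite PCDHA12, fell in controls by 2.96 on the log2 scale (SE 0.70, adjusted p = 0.000974), and its day 0 controls ran from 2.08 to 115 CPM. ENSG00000278946, opposite PCDHA10, rose by 3.67 (SE 1.05, adjusted p = 0.00521) in controls and had 0.01 (SE 0.92) in knockouts. The named count of PCDHA10 fell in the same control libraries, and the interaction term of the feature was -3.66 (SE 1.37, adjusted p = 0.179).

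No member was called between lines of the same genotype at day 14. Of 20 members tested in a fit with the 4 lines apart, 0 were called between the knockout lines, where 1.23% of 15000 features were (0.827% higher and 0.400% lower in line 2). Between the control lines 0 were called, where 0.107% of features were (0.0933% higher and 0.0133% lower in line 2). At an unadjusted p under 0.05 there were 0 members between the knockout lines and 2 between the control lines, PCDHA6 (log2 fold change 2.24, SE 0.75) and PCDHA4 (0.68, SE 0.25), both higher in control line 2. DESeq2 called none in either. These are comparisons of 3 libraries with 3, and a missed threshold does not show that the lines are alike.

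The counts of called genes in 4 pathway lists at day 14 are given against the 21.7% of all features called in that fit, and are not read as a result about the pathway. Of the 8 tested CTCF and cohesin genes, which act in promoter choice, 1 fell and none rose: RAD21, a cohesin subunit, had 30.1 to 42.9 CPM in controls and 16.2 to 27.5 CPM in knockouts with no overlap, and -0.74 as log2 fold change (SE 0.20; adjusted p = 0.00988). Of 12 tested genes of promoter silencing, 1 rose, SMCHD1, a chromatin protein known to repress clustered protocadherins, from 1.62 to 4.24 CPM in controls to 2.77 to 15.4 CPM in knockouts (log2 fold change 1.56, SE 0.44, adjusted p = 0.0106). Of 3 tested non-clustered protocadherins 1 rose, PCDH7 (2.10, SE 0.56, adjusted p = 0.00736). Of 13 tested partners in signalling and processing 2 rose, both subunits of the WAVE complex that controls actin: WASF1 (0.93, SE 0.21, adjusted p = 0.00218) and NCKAP1 (1.23, SE 0.32, adjusted p = 0.00678). The median log2 fold changes of the 4 lists were 0.16, 0.33, 1.24 and 0.41, against 0.07 over all features, and the same doubt on strand holds for these genes.

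Markers of cell type moved with genotype in the same libraries. Over all features 11.0% were called higher and 10.7% lower in knockouts. In the neuron, neural progenitor and glia lists 1 tested gene each had a negative log2 fold change (-1.37, -0.02 and -0.25). In the neural crest list 1 had a positive value (0.23). Summed neuron markers (10 genes) were 41.7 to 76.3 CPM in day 14 controls and 104 to 216 CPM in day 14 knockouts, with 5 of 8 tested genes higher and none at 0. Summed neural progenitor markers were 239 to 409 and 498 to 853 CPM, with 4 of 7 tested genes higher. Neural crest markers were 94.6 to 129 and 31.8 to 57.7 CPM, with 2 of 5 tested genes lower. Glia markers were 30.7 to 38.9 and 59.8 to 83.6 CPM, with 1 of 2 tested higher. Mesenchyme markers summed to at most 18.0 CPM, with LUM at 0, and endothelium markers to at most 6.21 CPM in every day 14 library. S100B, a glia marker, was at 0 in both genotypes at day 14, and AQP4, another, was at 0 in the knockouts. The pluripotency markers had none of 3 tested genes past the threshold. The part of these markers in the differences of PCDHA1, PCDHA4, PCDHB1-AS1 and the beta total was not tested.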

How the data were processed

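Poly(A) RNA from Trizol extracts was made into libraries by Click-Seq, which joins the adapter by click chemistry. The authors deposited raw counts per gene, 1 table per library. Per the submitters' processing notes they used bcl2fastq 2.20.0, STAR 2.7.9a with GRCh38, featureCounts of Subread 2.0.1, DESeq2 1.34.0 and R 3.5.1; the sources used here give neither the annotation release nor the strand setting. Features were placed by name on GENCODE release 29 (57065 of 61248, with 90.17% of counts); the authors may have counted on another release.

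The test on raw counts was quasi-likelihood in edgeR 4.0.16 (R 4.3.3), with TMM scaling, filterByExpr and robust fits on all features, at a Benjamini-Hochberg adjusted p under 0.05. Genotypes were compared within a day, 6 libraries against 6; days and the interaction in 1 fit of 24; lines in a fit of 4 groups of 3. Alternatives were RLE scaling, DESeq2 1.42.0, no filter, a replicate block, each library or line left out, means or sums per line, all 24 libraries, and the minor-strand percent as a covariate. Named genes were BRAT1, members that passed the filter or had at least 30 counts, other locus features with at least 30 counts, and up to 3 called genes per pathway list. Members, lists and tests were chosen with earlier results of these data known. Scripts were tested on simulated data. Replicates of a line differed beyond sampling noise (chi-square per degree of freedom 4.89 to 71.5 over 24 pairs), so none were merged.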

Additional observations from a re-analysis of the deposited data

Results flagged for a closer look

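In 19 of 102 groups of 6 libraries, the highest or lowest library stood apart from the other 5 by Dixon's test at the 95% level, where chance flags about 1 group in 20. All values here are scaled CPM, with the next library in brackets.

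Among members at day 14, PCDHA1 reached 21.2 (13.1) in control line 2 replicate B, PCDHA11 reached 51.1 (36.6) in control line 1 replicate B, and PCDHA9 reached 15.6 (7.47) in knockout line 2 replicate C. At day 0, PCDHA6 reached 10.7 (1.38) in control line 2 replicate A, PCDHGB7 reached 4.65 (0.692) in control line 1 replicate B, and PCDHGB4 reached 0.613 (0) in knockout line 2 replicate A. The gamma total reached 34.5 (10.6) in day 0 knockout line 2 replicate C and 49.1 (29.3) in day 14 knockout line 1 replicate A. Without control line 2 replicate B the log2 fold change of PCDHA1 at day 14 was 1.70.

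The other 11 were minus-strand features. ENSG00000279726 reached 16.4 (4.84) in day 0 control line 2 replicate A, 10.5 (3.88) in day 0 knockout line 2 replicate C and 38.2 (21.0) in day 14 control line 2 replicate C. ENSG00000278946 reached 13.5 (4.55) in day 0 knockout line 2 replicate A, ENSG00000278901 reached 25.2 (3.16) in day 0 control line 2 replicate C and ENSG00000272154 reached 12.6 (0.692) in day 0 control line 2 replicate A. ENSG00000279028 reached 2.36 (0.54) in day 14 control line 2 replicate C and 0.756 (0) in day 14 knockout line 2 replicate C. ENSG00000280029 reached 15.5 (9.84) in day 14 knockout line 2 replicate A. The low ones were ENSG00000278915 at 3.81 (9.32) in day 14 knockout line 2 replicate A and ENSG00000278936 at 46.1 (68.5) in day 14 knockout line 2 replicate C.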

How the results depend on the processing

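At day 14 the count of 2 changed members became 1 without control line 1, 1 without knockout line 1, 0 with all 24 libraries in 1 fit, and 1 to 2 when single libraries were left out; with the replicate block it stayed 2. It became 3 with no filter (PCDHA1, PCDHB11, PCDHGB3), with the 4 lines as groups and without control line 2 (PCDHA1, PCDHA4, PCDHB11), and without knockout line 2 (PCDHA1 and PCDHA4 higher, PCDHA8 lower). In the settings that keep a filter PCDHB11 and PCDHA8 entered through the genotype where they were high, so these calls are no separate support. For day 14 against day 0 in knockouts the count of 5 became 9 with RLE scaling, 10 with DESeq2, 20 with no filter on low counts and 8 with the replicate block. Between the knockout lines it went from 0 to 1 with no filter. The cause of these shifts was not tested. The replicate block changed no other count; same-letter libraries of different lines correlated over 0.1 in 9 of 18 pairs at day 0 and 0 of 18 at day 14, so not in every pair, and the letters were not taken as pairing the samples. At day 0 all same-letter pairs (0.0605 to 0.232) lay above all different-letter pairs (-0.148 to 0.0187), a hint from the data that the letters share something there.

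Log2 fold changes of members that did not pass at day 14 changed sign as follows, the cause not tested. With the minor-strand percent as a covariate PCDHA2 had 0.12, PCDHA5 0.20 and PCDHA9 -0.37. Without control line 2, PCDHA2 had 0.12 and PCDHA6 0.72. PCDHA3 had -0.0537 with no filter, -0.29 without control line 1, -0.00059 without knockout line 1, -0.0060 with means of the 4 lines, -0.19 with counts summed per line, and -0.12 to 0.13 when single libraries were left out. PCDHA9 had -0.24 without control line 1, -0.20 without knockout line 2, -0.0370 with counts summed per line, and -0.21 to 0.24 when single libraries were left out. With CPM of the plain library total, the alpha totals at day 14 had means of 256 in controls and 285 in knockouts, and the gamma total had 25.0 in controls.

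Depth limits the beta and most gamma names: 42 of the 54 members failed the filter at day 14, and their differences were tested only in alternatives that admitted them.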
